A study of Mus musculus with 14 samples.

Results

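The 9 genes described here encode transcription factors of the enteroendocrine lineage: Neurog3, Neurod1, Isl1, Pax4, Pax6, Nkx2-2, Insm1, Rfx6 and St18. They were chosen as a listed set of gene symbols from 36401 genes in the deposited tables. Each symbol had a single entry. RNA had been sequenced from the small intestine of mice of strain C57Bl6, labelled male, at an age of 6 to 12 weeks. The ileum was sampled at 5 to 8 cm from the cecum, and the jejunum at 5 to 8 cm from the pylorus. In each region 3 populations were prepared: crypt cells (3 libraries a region), cells selected by LGR5 (2 libraries) and cells sorted as CD44+/CD24lo/CD166+ (2 libraries), called crypt, LGR5 and CD166 below. No treatment or engineered allele is named for any of the 14 libraries. How LGR5 cells were recognised is not given, and all 3 populations are labelled as stem cells. Nothing states whether libraries came from separate or pooled mice, so p-values measure the spread between these libraries, which may be technical.

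Enteroendocrine cells are the hormone-secreting cells of the gut epithelium, and they arise from crypt progenitors. Neurog3, a basic helix-loop-helix factor, is switched on briefly in progenitors that enter this fate, after release from Notch signalling, and is needed for the lineage. Neurod1, a related factor, Insm1, a zinc-finger factor, and Nkx2-2, a homeodomain factor, act downstream of it, together with Pax4 and Pax6, which are paired box factors. Isl1, a LIM homeodomain factor, and Rfx6, a winged-helix factor, are kept on in hormone-producing cells, and St18 is a zinc-finger factor of the Myt family. In bulk RNA of a population, more cells of a type and more RNA per cell cannot be told apart.

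Promoter sequence is shown for 5 members, chosen from 2 different comparisons described below. Neurog3 was the only member called higher in LGR5 cells than in crypt cells, a call that did not hold in every fit. Neurod1, Isl1, Pax6 and Rfx6 are the members called higher in CD166 cells than in LGR5 cells for which a window was matched. Neurog3 was not called between CD166 and LGR5 cells. The sequences are the 250 bases before the RefSeq start of each gene in build GRCm38.p6, 5′ to 3′ on the gene's strand, with each E-box (CANNTG, the motif bound by basic helix-loop-helix factors) in capitals. The windows are chr10:62132840-62133089 on the plus strand for Neurog3, chr2:79456637-79456886 on the minus strand for Neurod1, chr13:116309689-116309938 on the minus strand for Isl1 and chr10:51685268-51685517 on the plus strand for Rfx6. Pax6 has 2 listed starts, with windows chr2:105668646-105668895 and chr2:105682213-105682462, both on the plus strand.
Neurog3: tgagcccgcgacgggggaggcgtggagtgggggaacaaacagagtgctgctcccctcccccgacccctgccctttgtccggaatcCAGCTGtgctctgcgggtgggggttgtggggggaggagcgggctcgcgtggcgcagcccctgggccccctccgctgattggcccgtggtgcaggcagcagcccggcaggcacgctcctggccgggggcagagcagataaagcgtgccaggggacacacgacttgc
Neurod1: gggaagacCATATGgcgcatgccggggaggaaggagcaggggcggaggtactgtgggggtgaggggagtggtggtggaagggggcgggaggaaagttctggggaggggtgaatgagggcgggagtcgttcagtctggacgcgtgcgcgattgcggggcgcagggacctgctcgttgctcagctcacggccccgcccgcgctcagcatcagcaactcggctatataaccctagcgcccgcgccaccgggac
Isl1: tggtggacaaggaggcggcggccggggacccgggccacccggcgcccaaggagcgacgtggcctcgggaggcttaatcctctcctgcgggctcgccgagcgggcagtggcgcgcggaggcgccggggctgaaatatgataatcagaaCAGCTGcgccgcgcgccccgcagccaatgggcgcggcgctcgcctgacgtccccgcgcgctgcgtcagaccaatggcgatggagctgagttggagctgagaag
Pax6 window 1: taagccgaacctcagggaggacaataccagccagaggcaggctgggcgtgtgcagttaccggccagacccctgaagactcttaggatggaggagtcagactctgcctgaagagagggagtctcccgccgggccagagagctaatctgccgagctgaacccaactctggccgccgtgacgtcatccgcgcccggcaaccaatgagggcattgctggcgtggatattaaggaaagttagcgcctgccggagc
Pax6 window 2: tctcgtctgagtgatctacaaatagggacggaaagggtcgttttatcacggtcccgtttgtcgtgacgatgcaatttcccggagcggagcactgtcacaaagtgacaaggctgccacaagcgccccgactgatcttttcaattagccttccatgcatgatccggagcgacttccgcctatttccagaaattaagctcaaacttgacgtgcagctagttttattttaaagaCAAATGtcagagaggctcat
Rfx6: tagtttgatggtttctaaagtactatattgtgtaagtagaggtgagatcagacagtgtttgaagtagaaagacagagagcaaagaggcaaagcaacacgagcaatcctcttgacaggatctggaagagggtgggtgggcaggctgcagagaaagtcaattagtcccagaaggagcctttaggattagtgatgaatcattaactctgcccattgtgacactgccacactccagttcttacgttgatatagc
Neurog3 held a single E-box, CAGCTG, whose first base lies 165 bases upstream of the start. Isl1 held the same letters at 103 bases upstream, Neurod1 held CATATG at 242 bases upstream, and Rfx6 held no CANNTG. RefSeq windows were matched for 6 of the 9 members, 7 windows in all, and 5 of the 7 held a CANNTG on either strand, against 66.2% of all 32851 windows of the same length. CAGCTG was in 2 of the 7 windows and in 13.0% of all windows. CAGATG, searched on both strands and counted also under CANNTG, was in 1 window, that of Nkx2-2, and in 14.4% of all. The Nkx2-2 window also held CACTTG and CACGTG. Of the 2 Pax6 windows, 1 held CAAATG, at 20 bases upstream. TATAAA was in 0 of the 7 windows and in 12.4% of all. These are matches of letters, not measured sites of binding.

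Total expected counts ran from 6295828 to 20380369 per library. Several libraries stood apart from their labels. The library labelled ileum crypt 3 was closer to jejunum crypt 1 than any other pair was to each other: 17.1% of genes differed beyond counting noise, against 37.9% in the next closest pair, the 2 jejunum LGR5 libraries. It held 25.8 CPM of the ileal gene Fabp6, where ileum crypt 1 and 2 held 2685 and 1985 CPM, and 232.7 CPM of the jejunal factor Gata4, against 28.0 and 45.3 CPM. The library labelled jejunum crypt 1 in turn held 25.0 CPM of Fabp6, where jejunum crypt 2 and 3 held 1.26 and 1.14 CPM, and 0.367 CPM of Pdx1, a factor of the proximal gut, against 23.5 and 13.2 CPM. Xist, normally transcribed from the inactive X chromosome of females, was at 1673 CPM in ileum crypt 1, at 1309 CPM in jejunum crypt 2, at 200.7 to 1360 CPM in all 8 sorted libraries, and at 2.78 to 3.11 CPM in the other 4 crypt libraries. Libraries that share the label male thus differed in Xist. Summed CPM of 9 lymphocyte markers was 147.1 to 3017 in ileum crypt, 634.0 to 10560 in jejunum crypt and 6.42 to 52.0 in the sorted libraries. It was highest in jejunum crypt 2 and ileum crypt 1, the crypt libraries with the lowest summed levels of the 9 members. Comparisons with crypt cells are given also without these 2 libraries and against them alone, both chosen after seeing the data. Of 8 markers of enteric neurons and glia, which also use several of these factors, Sox10 reached at most 0.903 CPM and Elavl4 at most 0.903 CPM in any library, and Ret reached 16.1 CPM.

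All values per library below are CPM, counts relative to the library total, after TMM scaling, a correction for the makeup of each library. All 9 members passed the filter on low counts. Expected counts per library ran from 4.5 to 102.5 for Pax4, the least covered member, and up to 1520 for Insm1, so that Pax4 values rest on few reads. Summed CPM of the 9 members was 26.9 to 53.2 in ileum crypt, 22.1 to 51.6 in jejunum crypt, 54.7 to 128.6 in ileum LGR5, 53.2 to 84.5 in jejunum LGR5, 136.1 to 247.5 in ileum CD166 and 408.7 to 423.0 in jejunum CD166. The members thus divided into Neurog3, whose mean was highest in LGR5 cells, Pax4, which was low throughout, and 7 genes whose group means were highest in jejunum CD166 and next highest in ileum CD166.

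**Figure D1:**
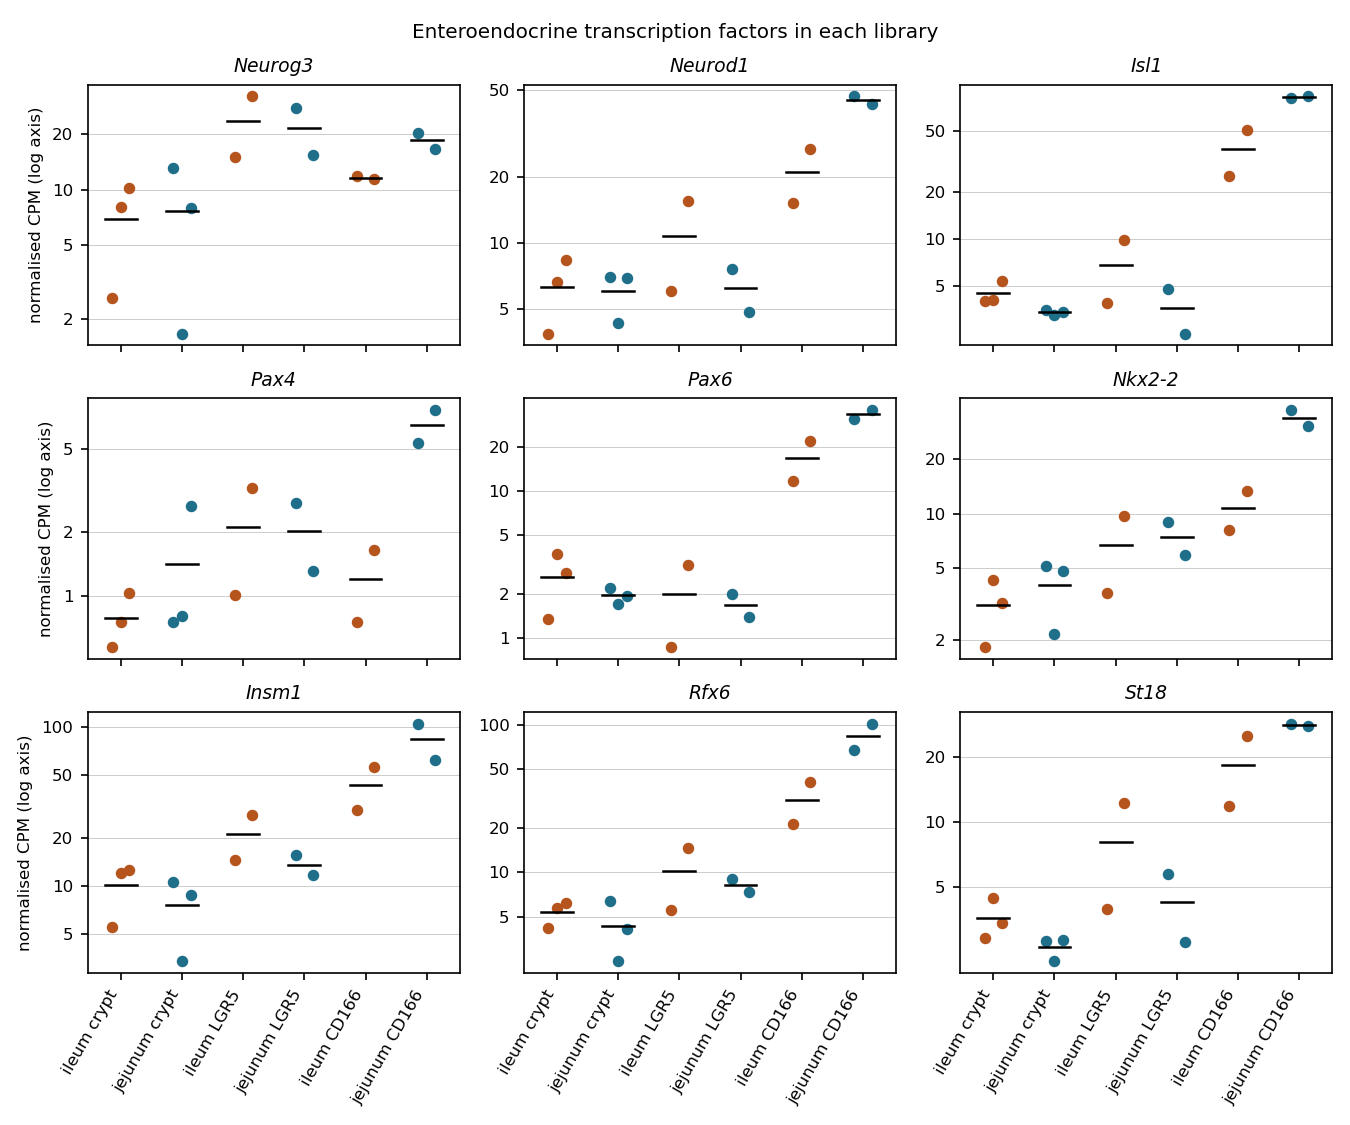
Normalised CPM (log axis, a separate scale for each gene) of the 9 genes in the 14 libraries; each point is a library, ileum in brown and jejunum in blue, and the bar is the group mean. Neurog3 means are highest in the LGR5 groups (23.7 and 21.7 CPM), and Isl1 is highest in jejunum CD166 (81.5 and 83.3 CPM).

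Neurog3, the factor that starts the lineage, was at 2.59, 8.03 and 10.2 CPM in ileum crypt and at 13.2, 1.66 and 8.03 CPM in jejunum crypt. It was at 15.1 and 32.2 CPM in ileum LGR5 and at 27.9 and 15.4 CPM in jejunum LGR5. It was at 11.9 and 11.4 CPM in ileum CD166 and at 20.4 and 16.7 CPM in jejunum CD166. Every LGR5 library lay above every crypt library, the lowest 2 crypt libraries were those highest in lymphocyte markers, and CD166 levels overlapped both other populations. The mean was 22.7 ± 8.71 CPM in LGR5 cells (SD, n = 4), 15.1 ± 4.27 CPM in CD166 cells (SD, n = 4) and 7.30 ± 4.45 CPM in crypt cells (SD, n = 6). By group the order of means was ileum LGR5, jejunum LGR5, jejunum CD166, ileum CD166, jejunum crypt and ileum crypt, and the ranges of neighbours overlapped except between jejunum and ileum CD166.

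Neurod1, which acts next in the cascade, was at 3.87, 6.63 and 8.35 CPM in ileum crypt and at 6.97, 4.31 and 6.91 CPM in jejunum crypt. It was at 6.03 and 15.5 CPM in ileum LGR5 and at 7.62 and 4.85 CPM in jejunum LGR5. It was at 15.2 and 26.7 CPM in ileum CD166 and at 46.5 and 43.1 CPM in jejunum CD166. The jejunum CD166 libraries were above all others, while ileum CD166 1 was just below the higher ileum LGR5 library. Insm1 was at 5.58, 12.2 and 12.7 CPM in ileum crypt, at 10.6, 3.41 and 8.82 CPM in jejunum crypt, at 14.7 and 28.2 CPM in ileum LGR5 and at 15.6 and 11.7 CPM in jejunum LGR5. In CD166 cells Insm1 was at 30.0 and 55.9 CPM in ileum and at 104.6 and 62.0 CPM in jejunum, so that every CD166 library lay above every LGR5 and crypt library.

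Nkx2-2 was at 1.82, 4.29 and 3.20 CPM in ileum crypt, at 5.12, 2.16 and 4.82 CPM in jejunum crypt, at 3.62 and 9.77 CPM in ileum LGR5 and at 9.05 and 5.87 CPM in jejunum LGR5. In CD166 cells it was at 8.14 and 13.4 CPM in ileum and at 37.6 and 30.7 CPM in jejunum. The ileum CD166 libraries overlapped the LGR5 range, and the jejunum ones did not. Pax4 was at 0.569, 0.753 and 1.03 CPM in ileum crypt, at 0.752, 0.801 and 2.67 CPM in jejunum crypt, at 1.01 and 3.25 CPM in ileum LGR5 and at 2.77 and 1.31 CPM in jejunum LGR5. In CD166 cells Pax4 was at 0.753 and 1.66 CPM in ileum and at 5.34 and 7.62 CPM in jejunum. The jejunum CD166 pair was above every other library, and no other group stood apart.

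Isl1, a factor of hormone-producing cells, was at 3.99, 4.07 and 5.37 CPM in ileum crypt, at 3.48, 3.23 and 3.38 CPM in jejunum crypt, at 3.86 and 9.78 CPM in ileum LGR5 and at 4.77 and 2.46 CPM in jejunum LGR5. In CD166 cells it was at 25.4 and 50.7 CPM in ileum and at 81.5 and 83.3 CPM in jejunum. Every CD166 library was above every other library. Pax6 was at 1.35, 3.72 and 2.74 CPM in ileum crypt, at 2.20, 1.70 and 1.94 CPM in jejunum crypt, at 0.863 and 3.11 CPM in ileum LGR5 and at 1.98 and 1.38 CPM in jejunum LGR5. In CD166 cells it was at 11.7 and 21.8 CPM in ileum and at 31.1 and 35.6 CPM in jejunum, again above every other library.

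Rfx6 was at 4.18, 5.72 and 6.17 CPM in ileum crypt, at 6.36, 2.51 and 4.14 CPM in jejunum crypt, at 5.60 and 14.7 CPM in ileum LGR5 and at 9.02 and 7.37 CPM in jejunum LGR5. In CD166 cells it was at 21.2 and 41.0 CPM in ileum and at 67.6 and 102.2 CPM in jejunum. The CD166 libraries of Rfx6 did not overlap the others. St18 was at 2.90, 4.45 and 3.39 CPM in ileum crypt, at 2.81, 2.28 and 2.83 CPM in jejunum crypt, at 3.95 and 12.2 CPM in ileum LGR5 and at 5.73 and 2.79 CPM in jejunum LGR5. In CD166 cells it was at 11.8 and 24.9 CPM in ileum and at 28.4 and 27.6 CPM in jejunum. The lower ileum CD166 library was just below the higher ileum LGR5 library.

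To compare genes with each other, CPM was divided by the length in kilobases of the longest coding transcript in GENCODE M21. On that per-length scale Neurog3 led in LGR5 cells, at 14.7 ± 5.65 (SD, n = 4), ahead of Insm1 at 5.66 ± 2.35 (SD, n = 4). In CD166 cells Isl1 was at 23.9 ± 11.0, Insm1 at 20.4 ± 9.98, Rfx6 at 16.7 ± 10.1, Neurod1 at 12.0 ± 5.35, Nkx2-2 at 10.6 ± 6.58 and Neurog3 at 9.80 ± 2.77 CPM per kilobase (SD, n = 4 each), and these ranges overlapped. In crypt cells all 9 lay between 0.514 and 4.74 CPM per kilobase on average, with Neurog3 highest and Pax6 lowest.

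Reads of some members cannot be told apart from those of genes that share exon bases, because the protocol does not state that the counting used strand. The 3′ exon of Neurog3 shares 273 bases with an opposite-strand gene listed as 2010107G23Rik, which ran from 14.4 to 27.3 CPM over the libraries. That gene differed by a log2 value of 0.05 ± 0.16 (SE) between LGR5 and crypt cells, with an adjusted p of 0.83, where Neurog3 differed by 1.62 ± 0.48. In CD166 cells that gene differed by 0.44 ± 0.16 from crypt (adjusted p 0.0537) and by 0.39 ± 0.17 from LGR5 cells (adjusted p 0.528). Neurod1 shares 201 exon bases with Cerkl on the same strand, at most 5.22 CPM, and Nkx2-2 shares 278 with its antisense gene, at most 1.14 CPM. Both partners were higher in CD166 than in crypt cells, Cerkl by a log2 value of 2.45 ± 0.56 (adjusted p 0.00752) and the antisense gene by 4.02 ± 1.12 (adjusted p 0.0247). Against LGR5 cells Cerkl differed by 2.655 ± 0.64 (adjusted p 0.0805) and the antisense gene by 2.245 ± 0.99 (adjusted p 0.533). The part of shared reads in the members' differences was not tested.

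Between LGR5 and crypt cells, Neurog3 was the only member called at an adjusted p under 0.05 in edgeR's quasi-likelihood test: its log2 difference, as the mean over the regions, was 1.62 ± 0.48 (SE), a 3.07-fold higher level in LGR5 cells, with an adjusted p of 0.0261. That is 1 of 9 members called higher, where 13.0% of all 14750 tested genes were called higher and 18.5% lower, so the share of members was near the background. Nkx2-2, Insm1, Rfx6, St18 and Pax4 had log2 differences of 0.90 to 0.99 with adjusted p-values of 0.0538 to 0.174. Isl1 (0.34 ± 0.30), Neurod1 (0.40 ± 0.32) and Pax6 (-0.31 ± 0.39) had smaller differences. The median of the 9 was 0.904, against -0.0064 over all tested genes. Without any 1 of ileum LGR5 2 and the 2 jejunum LGR5 libraries the Neurog3 call was lost, and over all single left-out libraries its log2 difference ran from 1.25 to 1.92. Without the 2 crypt libraries high in Xist, Neurog3 differed by 1.19 (adjusted p 0.00765) and was again the only member called, where 37.3% of all genes were called in either direction. Compared with only those 2 crypt libraries, Neurog3 differed by 3.43 (adjusted p 0.000293), and Nkx2-2 and Insm1 were then also called, where 45.3% of all genes were. Those 2 crypt libraries were the highest in lymphocyte markers, and the part of those cells in the difference was not tested.

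Between CD166 and crypt cells 7 of the 9 members were called higher and 0 lower, against backgrounds of 13.6% called higher and 16.5% called lower. Isl1 was 14.4-fold higher (log2 3.84 ± 0.29, adjusted p 2.34e-05), Rfx6 10.6-fold and Pax6 10.5-fold. St18 was 7.28-fold, Insm1 6.73-fold, Nkx2-2 5.39-fold and Neurod1 4.93-fold higher, with adjusted p-values of 0.000214 to 0.000696. Pax4 (log2 1.40 ± 0.50, adjusted p 0.0548) and Neurog3 (1.00 ± 0.48, adjusted p 0.138) were not called. All 7 calls were kept when any single library was left out. Without the 2 crypt libraries high in Xist, 7 members were called, where 39.2% of all genes were called in either direction. With only those 2 as the reference, the crypt libraries highest in lymphocyte markers and lowest in the summed members, all 9 were called, where 43.6% of all genes were.

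Between CD166 and LGR5 cells 6 of the 9 members were called higher and none lower, where 1.61% of all tested genes were called higher. Pax6 was 12.9-fold higher in CD166 cells (log2 3.69 ± 0.43, adjusted p 0.00176) and Isl1 11.4-fold (3.51 ± 0.33, adjusted p 0.000586). Rfx6 was 5.64-fold, St18 3.89-fold, Neurod1 3.75-fold and Insm1 3.50-fold higher, with adjusted p-values of 0.0047 to 0.0428. Nkx2-2 was 2.72-fold higher without passing (log2 1.45 ± 0.39, adjusted p 0.128). Pax4 differed by 0.45 ± 0.54 and Neurog3 by -0.62 ± 0.53, the only negative estimate of the 9, and neither passed (adjusted p 0.86 and 0.785). Isl1 and Pax6 kept their calls in all 14 fits that left out a library and Rfx6 in 13, while Neurod1 and St18 kept theirs in 8 and Insm1 in 4. Over these fits the log2 difference ran from 1.63 to 2.32 for Neurod1, from 1.64 to 2.47 for St18 and from 1.55 to 2.08 for Insm1. The share of all genes called in each of these fits is not reported here.

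**Figure D2:**
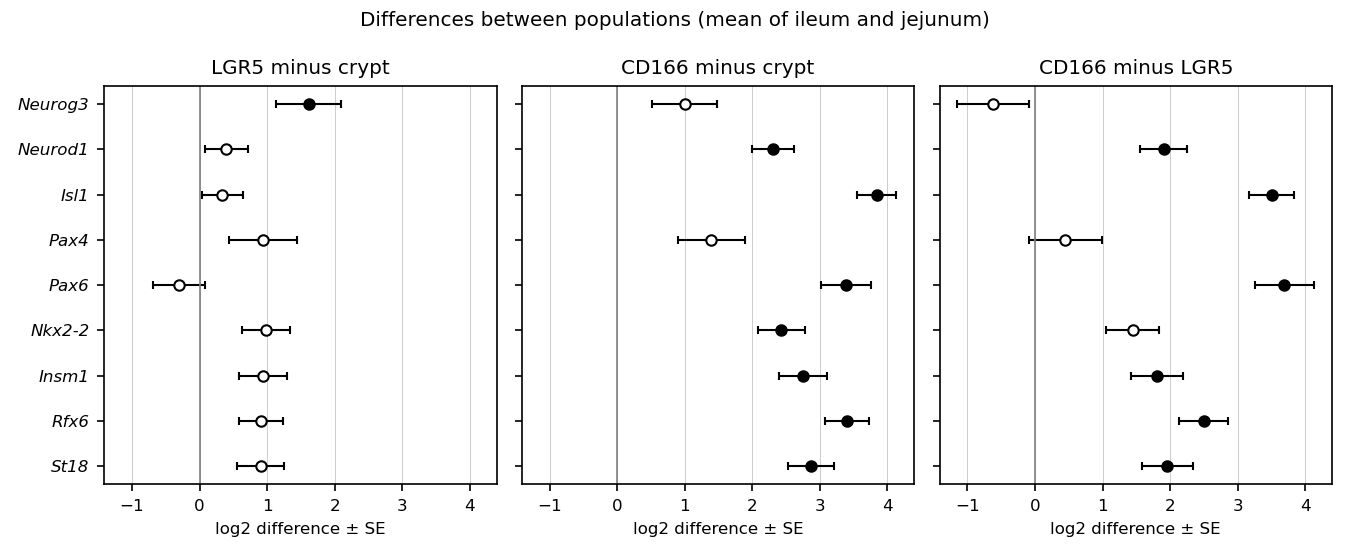
Log2 differences (points) with their standard errors (bars) for the 9 genes between populations, averaged over the regions; filled points passed an adjusted p under 0.05. Neurog3 is filled only for LGR5 against crypt (1.62), and Isl1 and Pax6 lie farthest right for CD166 against LGR5 (3.51 and 3.69).

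The markers of other cell types moved with these differences in part. Summed CPM of 5 Paneth cell markers was 32310 to 52580 in CD166, 5029 to 8580 in LGR5 and 5767 to 38730 in crypt libraries. Of the 5, 4 were called higher in CD166 than in LGR5 cells, where 1.61% of all tested genes were. Summed CPM of 6 general enteroendocrine markers was 3705 to 3773 in jejunum CD166, 488.2 to 1405 in ileum CD166, 200.8 to 360.8 in LGR5 and 153.4 to 635.1 in crypt libraries. Of 6 tuft cell markers and of 6 crypt base stem cell markers 0 were called between CD166 and LGR5 cells. All 6 tuft estimates were above 0 (list median 0.872) and 0 of the 6 stem cell estimates were (list median -0.475). Summed CPM of the tuft markers was 445.2 to 477.7 in jejunum CD166 and 136.7 to 147.8 in jejunum LGR5. In ileum it was 228.5 to 583.9 in CD166 and 187.0 to 556.0 in LGR5. Against crypt cells all 6 of each were called higher in CD166 cells, where 13.6% of all tested genes were. In LGR5 against crypt cells 3 tuft and all 6 stem cell markers were called higher, where 13.0% of all tested genes were. Summed CPM of 8 enterocyte markers was 5233 to 47490 in crypt and 383.3 to 2016 in sorted libraries. The part of these other cells in the results was not tested. Of 4 genes named in the sort labels, 3 were called higher in CD166 than in crypt cells, where 13.6% of all tested genes were. These were Cd44, Cd24a (3.06-fold) and Lgr5, while Alcam, which encodes CD166, differed by a log2 value of 0.02 ± 0.16 (SE). Between CD166 and LGR5 cells 0 of the 4 were called. These are RNA levels, not the surface proteins of the labels.

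Within the jejunum, 5 of the 9 members were called higher in CD166 than in LGR5 cells, where 1.35% of all tested genes were: Isl1 (23.1-fold), Pax6 (19.6-fold), Rfx6 (10.4-fold), Neurod1 (7.22-fold) and St18 (6.62-fold), with adjusted p-values of 0.00208 to 0.0364. Insm1 lay at the threshold (6.11-fold, adjusted p 0.05), and Neurog3 differed by -0.22 ± 0.74. The 5 calls were lost when either jejunum LGR5 library was left out, which leaves 1 library in that group. Over all single left-out libraries the log2 difference ran from 4.10 to 5.06 for Isl1 and from 4.02 to 4.57 for Pax6. It ran from 3.05 to 3.62 for Rfx6, from 2.54 to 3.21 for Neurod1 and from 2.27 to 3.33 for St18. Within the ileum 0 members were called, where 0.0136% of all tested genes were called in either direction, with Pax6 at 8.55-fold and Isl1 at 5.60-fold (adjusted p 0.211 and 0.183). At an unadjusted p under 0.05, 4 members passed in the ileum, where 5.78% of all genes did. DESeq2 called 2 members, where it called 0.556% of all genes, and limma-voom called 0, where it called 0.00678%.

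The other genes of the endocrine programme were taken from 4 lists, whose counts stand against these shares of all tested genes. Between CD166 and LGR5 cells 1.61% were called higher and 0 lower. Between LGR5 and crypt cells 13.0% were called higher and 18.5% lower, and between CD166 and crypt cells 13.6% and 16.5%. Of 16 tested further transcription factors linked to endocrine cells, 5 were called higher in CD166 than in LGR5 cells and 0 lower, with a list median of 1.43 against 0.0023 over all genes. Among them were Myt1 (3.45-fold), a relative of St18, Hhex (32.1-fold), a factor of somatostatin cells, Etv1 (7.20-fold) and Runx1t1 (3.06-fold). In LGR5 against crypt cells 7 of these 16 were called higher, among them Sox4 (3.68-fold) and Foxa1 (2.25-fold), and 2 lower, among them Hhex (log2 -1.67), with a list median of 0.306. In CD166 against crypt cells 12 were called higher and 1 lower (list median 1.65).

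Of 18 genes of hormone processing and secretory granules 16 were called higher in CD166 than in LGR5 cells, with a list median of 2.55. Chgb, a granule protein, was 7.94-fold higher, Chga 4.81-fold, Cpe, a processing enzyme, 17.7-fold and Pcsk1, a prohormone convertase, 4.05-fold. In LGR5 against crypt cells 5 of these 18 were called lower and 1 higher (list median -0.808), where 18.5% and 13.0% of all tested genes were. Chga and Ddc fell by 1.33 and 1.74 on the log2 scale, and Cplx2 was 2.21-fold higher. In CD166 against crypt cells 14 were called higher (list median 2.45).

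Of 9 tested peptide hormone genes 5 were called higher in CD166 than in LGR5 cells: Sst (57.3-fold), Gip (53.4-fold), Sct (13.9-fold), Cck (12.3-fold) and Tac1 (4.17-fold), with a list median of 3.31. In LGR5 against crypt cells 3 were called lower, Cck, Tac1 and Nts, and none higher (list median -1.25), against 18.5% and 13.0% of all tested genes. In CD166 against crypt cells 6 were called higher and 1, Nts, lower. Of 13 genes of Notch signalling and secretory fate, upstream of Neurog3, 0 were called between CD166 and LGR5 cells (list median 0.0556; Dll1 -0.59 ± 0.26, Notch1 -0.42 ± 0.19). In LGR5 against crypt cells 5 were called higher, among them Notch1 (3.08-fold), Dll1 (2.39-fold) and Hes1 (2.34-fold), and Mfng was called lower. In CD166 against crypt cells 5 were called higher and 0 lower. Atoh1, the factor that opens the secretory fate, was not called in any of these 3 contrasts (log2 0.06 to 0.57).

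The ratio of Neurog3 to Neurod1 counts within a library sets the early factor against its successor without library scaling. It was 2.50 and 2.08 in ileum LGR5 and 3.64 and 3.16 in jejunum LGR5. It was 0.781 and 0.428 in ileum CD166 and 0.439 and 0.388 in jejunum CD166. In crypt it was 0.674, 1.21 and 1.23 in ileum and 1.89, 0.399 and 1.16 in jejunum. The LGR5 and CD166 libraries did not overlap, and the crypt libraries lay between them or at the CD166 values. On the log2 scale the mean was 1.47 ± 0.36 in LGR5 (SD, n = 4), -1.03 ± 0.46 in CD166 (SD, n = 4) and -0.03 ± 0.79 in crypt cells (SD, n = 6). The difference between CD166 and LGR5 cells was -2.51, with an exact two-sided permutation p of 0.0286, the smallest these groups allow, and 0.0571 after Benjamini-Hochberg adjustment over 2 comparisons. That between CD166 and crypt cells was -1.002 (exact permutation p 0.0762, adjusted 0.0762).

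**Figure D3:**
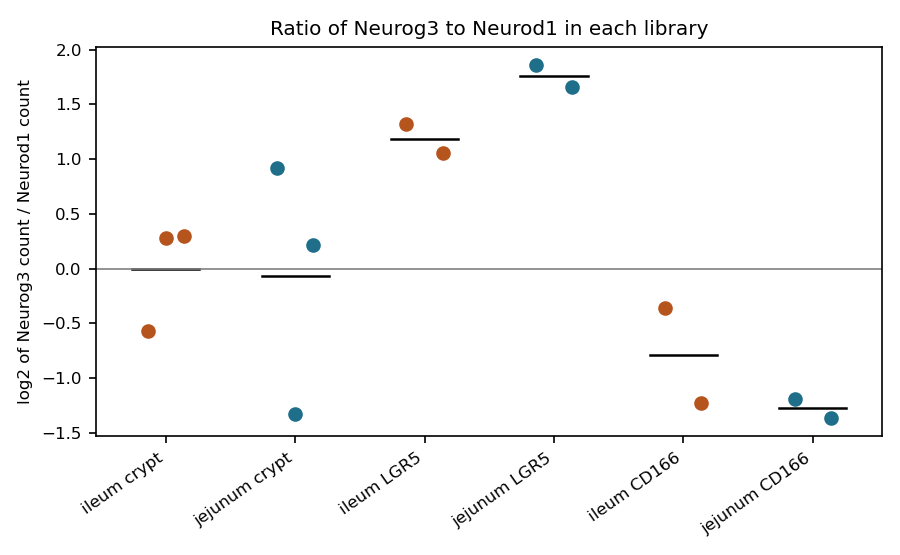
Log2 of the ratio of the Neurog3 count to the Neurod1 count in each of the 14 libraries (points; ileum in brown, jejunum in blue), with the group mean as a bar. The 4 LGR5 libraries lie between 1.05 and 1.86 and the 4 CD166 libraries between -1.37 and -0.36.

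Between ileum and jejunum, as the mean over the 3 populations, edgeR called 0 of the 9 members, where 5.01% of all tested genes were called in either direction. At an unadjusted p under 0.05, 2 members passed, Pax4 (-1.07 ± 0.43, adjusted p 0.205) and Nkx2-2 (-0.75 ± 0.30, adjusted p 0.205), both lower in ileum, where 17.7% of all genes passed. DESeq2 and limma-voom called 0 members, where they called 9.56% and 4.56% of all genes. Within crypt cells 0 members were called, against 0% of all genes, and 0 passed at an unadjusted p under 0.05, where 12.9% of all genes did. Within LGR5 cells 0 were called, against 0.698% of all genes, and 0 passed at an unadjusted p under 0.05, against 14.1%; 8 of the 9 estimates were above 0, up to 0.93 for Isl1. DESeq2 and limma-voom called 0 members in either. Of all genes, DESeq2 called 2.19% in crypt and 5.17% in LGR5 cells, and limma-voom 0% and 0.203%. Without ileum crypt 3, the library close to jejunum crypt 1, the share of all genes called rose to 8.61% over the populations, 4.17% in crypt cells, 2.42% in LGR5 cells and 0.76% in CD166 cells, and 0 members were called in each.

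Within CD166 cells 0 members were called between ileum and jejunum, against 0.0203% of all tested genes called in either direction. All 9 estimates were below 0, with a median of -1.09, against 0.0015 over all tested genes. The log2 differences ran from -0.60 (St18) to -2.42 (Pax4). Nkx2-2 differed by -1.66 ± 0.54, Rfx6 by -1.45 ± 0.48, Isl1 by -1.12 ± 0.42 and Neurod1 by -1.09 ± 0.47. These 4 and Pax4 had an unadjusted p under 0.05, where 6.36% of all genes did, with adjusted p-values of 0.469 to 0.75. DESeq2 and limma-voom called 0 members, where they called 1.26% and 0.319% of all genes. With the CD166 groups fitted alone, 3 members were called, where that fit called 4.14% of all genes. The summed enteroendocrine markers differed in the same direction, and the list median of the 18 secretory genes was -0.993. These 2 values are not separate, since the markers Chga, Chgb, Scg3, Tph1, Cpe and Pcsk1 are also on the secretory list. Chgb alone was at 2535 and 2385 CPM of the marker sum in jejunum CD166. The 9 members are not independent of one another, since each is read in the same 4 libraries.

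Whether the region difference itself differed between CD166 and LGR5 cells was tested directly: 0 members were called, as were 0% of all tested genes. All 9 estimates were negative, from -0.80 (Neurog3) to -2.49 (Pax4), and 4 had an unadjusted p under 0.05, where 6.39% of all genes did, with adjusted p-values of 0.665 at the lowest. The joint test of region by population likewise called 0 members, where 0.0136% of all genes were called, with 2 members (Isl1 and Rfx6) at an unadjusted p under 0.05, where 5.47% of all genes were. DESeq2 and limma-voom called 0 members in these tests. Of all genes, DESeq2 called 0.231% in the first and 0.481% in the joint test, and limma-voom 0% in each. Among the listed endocrine factors Pdx1 was lower in ileum over the 3 populations (log2 -5.17 ± 0.82, adjusted p 0.0078), and Prox1 (1.79 ± 0.45) and Etv1 (1.40 ± 0.34) were higher. Of the hormones, Pyy (27.0-fold), Nts (12.7-fold) and Gcg (4.79-fold) were called higher in ileum, where 5.01% of all tested genes were called in either direction. Of the Notch list 1 gene, Atoh1, was called higher in ileum (3.65-fold), and of the secretory list 2, Tph1 (-1.50) and Rab3c (-1.30), were called lower.

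**Figure D4:**
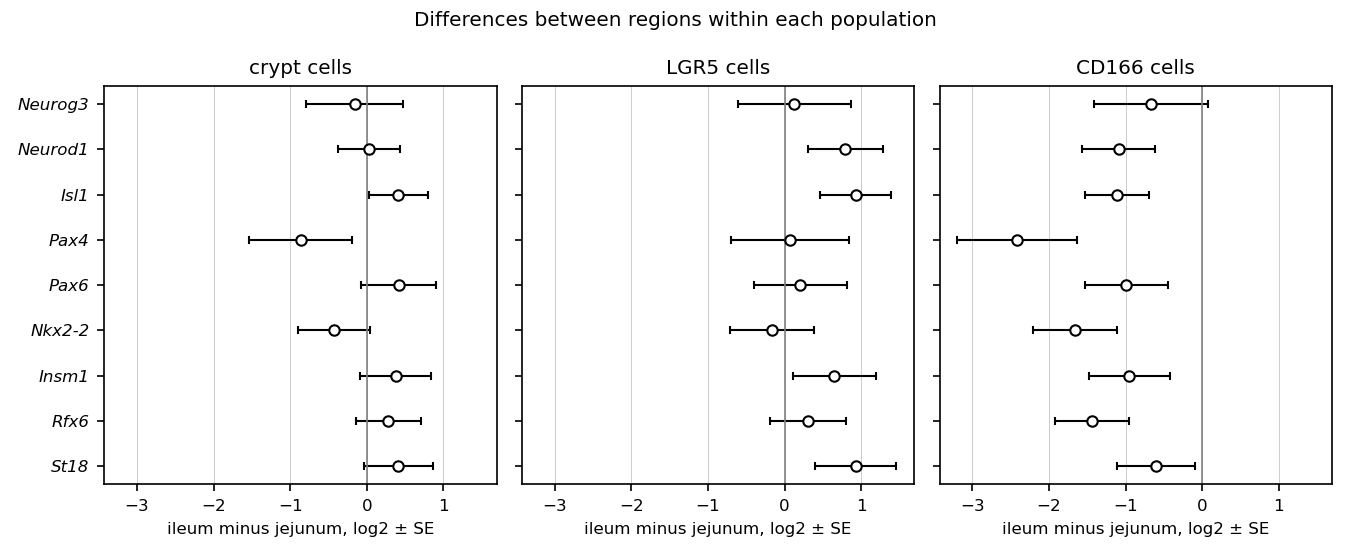
Log2 differences between ileum and jejunum (points) with standard errors (bars) for the 9 genes within crypt, LGR5 and CD166 cells; no point passed an adjusted p under 0.05. The CD166 estimates are all below 0, from -0.60 to -2.42, and those of LGR5 run from -0.16 to 0.93.

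In 3 of the 4 sorted groups most members differed in the same direction between the replicates. In ileum LGR5 all 9 members were higher in replicate 2 than in replicate 1, by 1.92-fold to 3.60-fold, and in jejunum LGR5 all 9 were lower in replicate 2, at 0.472 to 0.816 of replicate 1. In ileum CD166 8 of 9 were higher in replicate 2, up to 2.20-fold, with Neurog3 at 0.959. In jejunum CD166 4 of 9 were higher in replicate 2, from 0.593-fold to 1.51-fold.

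The 14 libraries differ in region, population and depth, and the correlations here include those differences. Across them, the 7 members other than Neurog3 and Pax4 had Pearson correlations of log2 CPM from 0.845 to 0.965 over their 21 pairs. Neurog3 correlated with the other members at 0.301 (Pax6) to 0.683, and Pax4 with the 7 at 0.577 to 0.841. The genes outside the members most alike in pattern over the same libraries were Rimbp2 for Rfx6 (0.991), Gfra3 for Insm1 (0.986), Cacna2d1 for Isl1 (0.983), Nefm for Neurod1 (0.977), Ctsf for St18 (0.975), Sphkap for Pax6 (0.970) and Vwa5b2 for Nkx2-2 (0.963). Myt1, the relative of St18, followed for St18 at 0.971. For Neurog3 they were Ints4 (0.965), Stau2 (0.953) and D10Wsu102e (0.948), and for Pax4 Stard5 (0.842). Among the 20 genes most like Pax6, 5 were on the secretory list (Cpe, Syt13, Scg3, Resp18 and Scg5) and 1 was a hormone, Sst. Among the 20 most like Neurog3, and among those most like Pax4, 0 were on any list.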

How the data were processed

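The members and gene lists were chosen with earlier results of these data known. For each of the 14 libraries the authors deposited 2 tables of 36401 genes. The values of one kind, whose name says RPKM, are unscaled expected counts as deposited. The other holds deposited log2 values centred on each gene's median with low values raised to a floor, and was not used for tests. Per the submitters' processing notes, mm9 and DESeq were used; what aligned and counted the reads, and against which annotation, is not given in the sources used here. Libraries were TruSeq, read as single-end 50-base reads, per the labels' protocols.

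Expected counts were rounded, filtered with filterByExpr (minimum count 10, minimum total 15; 14750 genes kept) and scaled by TMM in edgeR 4.0.16 (R 4.3.3). A quasi-likelihood model with 6 group means gave the contrasts; standard errors are the absolute log2 difference over the square root of F. The Benjamini-Hochberg adjustment covered all tested genes, and calls were made under 0.05. Alternatives used DESeq2 1.42.0, limma-voom 3.58.1, other filters and scalings, compared groups alone, a replicate block and single libraries left out. Ratios used counts plus 0.5. The fit was tested on simulated data. The text names all 9 members, at most 4 called genes of each list and comparison in order of mean CPM (Hhex, Etv1, Runx1t1, Nts and Rab3c were added after their values were seen), and, of the genes most like each member (mean log2 CPM of at least 1), the first or the first 3. Some list genes that count towards these totals are not reported here by name. Gene lengths and exon overlaps are from GENCODE M21 and promoter windows from RefSeq, both on GRCm38, a later build than the authors'.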

Additional observations from a re-analysis of the deposited data

How the results depend on the processing

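The counts of called members between ileum and jejunum (over all populations, in crypt and in LGR5) and in both interaction tests were 0 under every alternative run, and CD166 against crypt gave 7 to 9. The count for LGR5 against crypt, 1, where 31.5% of all genes were called in either direction, was the least settled. It was 0 without a filter, where 16.1% of all genes were called, and 4 with DESeq2, where 36.4% were. With the compared groups alone it was 0, against 26.1% of all genes, and with the replicate block 2, against 26.4%. It was 2 without ileum crypt 3 and jejunum crypt 1 together, 3 without jejunum crypt 1 and 2 without jejunum crypt 3. The shares of all genes called in those fits are not reported here, so these counts have no background. The same holds for some fits behind the range of 7 to 9. Leaving out a sorted library leaves 1 in its group, so counts of called members are not given for those fits. Calls between CD166 and LGR5 cells, over both regions and in jejunum, depended on single libraries, as given above. With the compared groups alone, 3 members were called between regions in CD166 (571 genes in all, against 3 with all 6 groups) and 8 between CD166 and LGR5 in jejunum (1331 genes, against 201); DESeq2 called 2 between CD166 and LGR5 in ileum. The log2 ratio of Neurog3 to Neurod1 between CD166 and LGR5 was also -2.51 with the replicate block, because pairing the same libraries cannot change that mean. There the exact p from flipping the signs of 4 paired differences was 0.125, the smallest that 4 pairs allow. It ran from -2.73 to -2.38 when a library was left out (exact permutation p 0.0571, the smallest that size allows). Against crypt the ratio difference ran from -1.26 to -0.81, with an exact permutation p of 0.0317 without jejunum crypt 2. The cause of these changes was not tested. Deviations of same-numbered libraries from their group means correlated at -0.476 to 0.431 over 31 pairs. In groups of 2 libraries the deviations mirror each other, and differently numbered libraries were not compared. Whether the replicate numbers pair the libraries thus cannot be told from these values. Exchanging the numbers of ileum CD166, an alternative chosen after seeing the data, left 0 members called between regions in CD166. Of single-member values under all alternatives, 2148 kept their side of the threshold, 46 passed it newly, 55 lost it and none turned direction while called. Counts of 4.5 to 102.5 limit what can be said of Pax4.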

Other observations

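The ileum LGR5 libraries, in which all 9 members were higher in replicate 2, also differed in other secretory genes. Atoh1, the factor of the secretory fate, was at 71.9 CPM in replicate 1 and 176.5 CPM in replicate 2, and Chga, a granule protein, at 40.5 and 75.6 CPM. Summed CPM of 6 goblet cell markers over this pair was 7633 and 21640, and that of 6 tuft cell markers 187.0 and 556.0. Lgr5, the receptor used for the selection, was at 339.0 CPM in replicate 1 and 123.0 CPM in replicate 2. In jejunum LGR5, by contrast, Lgr5 was at 200.6 and 186.1 CPM and Atoh1 at 14.5 and 11.8 CPM.

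Single hormones and granule genes also varied among the CD166 libraries. Gip, the hormone of K cells, was at 234.2 and 1399 CPM in ileum CD166 and at 3446 and 6698 CPM in jejunum CD166. Sst was at 542.6 and 1066 CPM in ileum CD166 and at 1953 and 1644 CPM in jejunum CD166. Chga was at 61.2 and 112.5 CPM in ileum CD166, below 4 of the 6 crypt libraries, and at 605.5 and 704.7 CPM in jejunum CD166.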
